A study of Mus musculus with 24 samples.

Results

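The 9 genes described here mark mast cells and basophils or are shared with their progenitors: Kit, Gata2, Hdc, Ms4a2, Fcer1a, Cpa3, Mcpt8, Prss34 and Il4. They were taken by symbol from a table of 54309 gene models, and all 9 were found. RNA was sequenced from mouse BMDC, dendritic cells derived by growing bulk bone marrow for 7 days in medium rich in GM-CSF. Marrow donors were either wild type (WT) or labelled LCH or mutant, a model of Langerhans cell histiocytosis with the BRAF-V600E change. The labels do not give the promoter or cell type that drives the allele. Cells received a BRAF-V600E inhibitor for 1 h or none. All groups, controls included, were then given LPS for 3 h, at 100 ug per mL per the labels, and a pulse of cycloheximide at 100 ug per mL. Total RNA and RNA of pooled polysome fractions were taken from each culture, which gave 8 groups of 3 libraries. The libraries carry pool letters, A, BD and C in WT and E, F and G in LCH. The labels name biological repeats but do not say how many animals a pool holds, so p-values refer to these pools. Without a block they measure the spread between pools. With pool or culture fitted as a block, they measure how far the change within a pool or culture varies.

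Mast cells and basophils are granule-bearing cells of allergic and anti-parasite responses. Both bind IgE through a receptor whose alpha chain is encoded by Fcer1a and whose beta chain is encoded by Ms4a2, and both store proteases and histamine in granules. Kit is the receptor for stem cell factor, carried by blood progenitors and kept by mast cells but lost by most mature basophils. Gata2 is a transcription factor of progenitors, mast cells and basophils, and Hdc is the enzyme that makes histamine. Cpa3 is a granule carboxypeptidase of mast cells and basophils, while Mcpt8 and Prss34 are proteases of mouse basophils. Il4 is the type 2 cytokine that basophils, mast cells and T helper cells can release. GM-CSF cultures of whole marrow hold other myeloid cells beside dendritic cells.

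The total RNA libraries held 19046600 to 39792200 counts. The 4 genes mt-Rnr1, mt-Rnr2, Rn18s and Lars2 are called rRNA-type here, although Lars2 codes for a protein. In LCH polysome libraries these 4 genes took 18.0 to 65.1% of the 9188920 to 30455100 counts. They took 71.4 to 99.2% of the 2017100 to 4090600 counts in WT polysome libraries, so they are given as counts alone. Of the dendritic cell markers Itgax, H2-Ab1, H2-Aa, Cd74, Flt3, Zbtb46, Cd209a, Irf4 and Ciita, 9 of 9 were counted in every group, and their summed level in total RNA was 8129 to 18050 CPM, edgeR's counts scaled to a common library size. The LCH pools E, F and G and the WT pools BD and C held Xist counts of 4157 or more in each total RNA library, and pool A held at most 34. Pool A alone was high for the Y-linked gene Ddx3y, with 1204 and 1266 counts against at most 4 elsewhere.

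The sequence before the transcription start is shown for 4 genes that were low together in LCH and for Kit, which was not. Each line gives the 250 bases before a RefSeq start on GRCm38.p6, read 5′ to 3′ along the gene. Capitals mark letters that GATA factors are known to bind, on either strand. The words searched were AGATAA with its variant TGATAA, and likewise AGATAG with its variant TGATAG, and the word TTATCT in a line reads AGATAA on the other strand.
Ms4a2: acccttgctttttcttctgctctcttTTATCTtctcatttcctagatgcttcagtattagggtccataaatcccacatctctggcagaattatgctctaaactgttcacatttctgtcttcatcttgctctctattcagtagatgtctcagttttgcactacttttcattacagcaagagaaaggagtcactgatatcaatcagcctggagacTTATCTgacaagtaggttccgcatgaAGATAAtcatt
Cpa3: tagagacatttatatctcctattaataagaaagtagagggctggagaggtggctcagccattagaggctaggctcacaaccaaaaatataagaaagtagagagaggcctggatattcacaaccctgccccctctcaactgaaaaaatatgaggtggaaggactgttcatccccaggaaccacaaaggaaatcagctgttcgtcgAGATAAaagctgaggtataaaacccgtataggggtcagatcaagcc
Prss34: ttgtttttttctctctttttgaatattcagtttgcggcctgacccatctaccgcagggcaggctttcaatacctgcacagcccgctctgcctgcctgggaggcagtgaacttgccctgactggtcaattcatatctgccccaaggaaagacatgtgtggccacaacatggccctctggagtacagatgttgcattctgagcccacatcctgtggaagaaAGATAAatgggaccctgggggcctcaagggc
Mcpt8: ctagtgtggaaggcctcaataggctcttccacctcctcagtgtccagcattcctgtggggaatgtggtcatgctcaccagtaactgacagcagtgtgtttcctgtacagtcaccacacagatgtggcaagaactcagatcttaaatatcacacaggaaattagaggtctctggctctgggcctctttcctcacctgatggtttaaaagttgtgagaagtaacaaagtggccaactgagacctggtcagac
Kit: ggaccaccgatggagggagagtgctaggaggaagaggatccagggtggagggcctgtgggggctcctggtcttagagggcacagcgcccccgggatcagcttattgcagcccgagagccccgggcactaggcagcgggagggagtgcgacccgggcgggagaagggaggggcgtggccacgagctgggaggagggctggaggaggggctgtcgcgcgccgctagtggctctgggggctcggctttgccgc

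These windows lie at chr19:11623720-11623969 on the minus strand (Ms4a2), chr3:20242182-20242431 on the minus strand (Cpa3), chr17:25298144-25298393 on the plus strand (Prss34), chr14:56085198-56085447 on the minus strand (Mcpt8) and chr5:75574737-75574986 on the plus strand (Kit). The Ms4a2 window held 3 of the words, the last ending 6 bases before the start, and those of Cpa3 and Prss34 held 1 each, ending 41 and 26 bases before it. The windows of Mcpt8 and Kit held none. Of the 9 genes, 6 held such a word before at least 1 of their RefSeq starts (Hdc, Ms4a2, Fcer1a, Cpa3, Prss34 and Il4). Counted per window, 26.6% of all 32817 windows of this length held one. Kit, Gata2 and Il4 had more than 1 window, so gene counts and window shares, here and for the words below, are in unlike units. The spaced word TTCNNNGAA was in the windows of 0 of the 9 genes and in 7.01% of all, TATAAA in those of Fcer1a and Cpa3 and in 12.4% of all, and CANNTG in those of 6 genes and 66.2% of all. Of the 8 GATA words in all windows of the 9 genes, 0 overlapped a word of another motif. The matches describe letters and were not tested for binding.

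Without inhibitor, Kit was higher in LCH than in WT total RNA, while 5 basophil and mast cell genes were lower by 4.67 to 20.3 times. Gata2 and Hdc did not pass the test. Among all 13375 genes tested, 14.8% were called higher and 14.9% lower, so 1 of the 9 genes called higher and 5 called lower stand against a broad genotype difference. A gene was called where edgeR's quasi-likelihood test gave a p-value under 0.05 after Benjamini-Hochberg adjustment over all genes tested. In these bulk libraries fewer cells of a type and less RNA per cell cannot be told apart.

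Kit stood at 49.3, 33.9 and 41.6 CPM in LCH pools E, F and G and at 18.2, 12.7 and 14.3 CPM in WT pools A, BD and C. All 3 LCH pools lay above the highest WT pool. The log2 fold change was 1.47 (SE 0.17, adjusted p = 1.59e-04 by edgeR), a 2.76-fold difference, and it was 1.62 without WT pool A.

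Gata2 stood at 42.5, 33.1 and 33.6 CPM in LCH pools E, F and G and at 36.3, 36.5 and 28.1 CPM in WT pools A, BD and C. The groups overlapped, and the log2 fold change was 0.11, with SE 0.15 and adjusted p = 0.601 by edgeR. Hdc stood at 89.1, 75.0 and 96.1 CPM in LCH and 86.3, 78.2 and 90.9 CPM in WT, in the same order of pools. These groups overlapped too, and the log2 difference of 0.03 (SE 0.13, adjusted p = 0.902 by edgeR) changed sign under several alternatives, the largest of them -0.12.

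**Figure D1:**
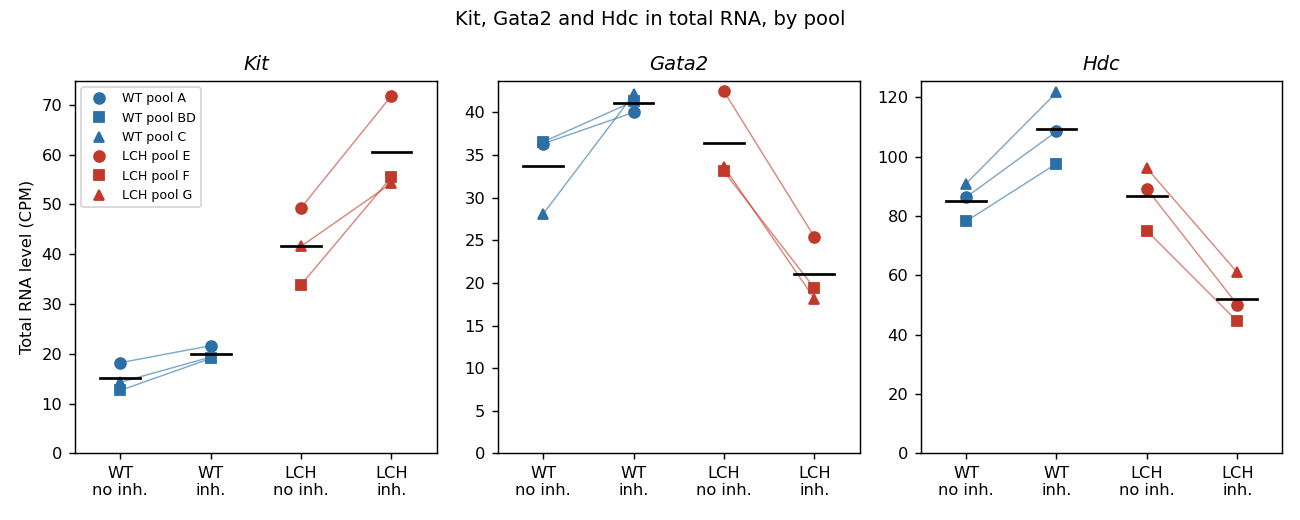
Total RNA levels of Kit, Gata2 and Hdc in CPM for each library, with lines joining the libraries of a pool without and with inhibitor and black bars at the mean of 3 pools. Kit lies higher in every LCH library than in every WT library, and Gata2 and Hdc go down with inhibitor in all 3 LCH pools and up in all 3 WT pools.

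The IgE receptor genes were at few counts in LCH. Ms4a2 had 9, 9 and 8 counts in LCH pools E, F and G (0.412, 0.439 and 0.296 CPM) and 83, 146 and 158 counts in WT pools A, BD and C (4.12, 8.40 and 8.12 CPM). Every WT library was far above every LCH library. Its log2 fold change was -4.17 (SE 0.44, adjusted p = 9.36e-05 by edgeR), or 17.9 times lower in LCH.

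Fcer1a had 5, 6 and 7 counts in LCH and 6, 77 and 96 counts in WT pools A, BD and C. WT pool A, at 0.298 CPM, lay next to the highest LCH pool at 0.293 CPM, and the other 2 WT pools were at 4.43 and 4.93 CPM. The log2 difference of -3.60 (SE 0.92, adjusted p = 0.0137 by edgeR) was -4.15 without pool A, and the call was lost without LCH pool E (adjusted p = 0.0612) or F (0.0502) or without WT pool C (0.052). Fcer1g, the signalling chain that this receptor shares with IgG receptors of other myeloid cells, was not called.

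Of the granule proteases, Mcpt8 stood at 2.75, 2.10 and 1.15 CPM in LCH pools E, F and G and at 17.0, 48.9 and 54.7 CPM in WT pools A, BD and C. Its log2 fold change was -4.35 (SE 0.64, adjusted p = 9.92e-04 by edgeR), which is 20.3 times lower. Prss34 stood at 8.37, 6.29 and 4.25 CPM in LCH and 33.3, 105 and 112 CPM in WT, a log2 difference of -3.73 with SE 0.66 and adjusted p = 0.00302.

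Cpa3 differed less, at 8.19, 5.71 and 2.62 CPM in LCH and 17.7, 24.2 and 34.9 CPM in WT. The log2 fold change was -2.22 (SE 0.47, adjusted p = 0.00587 by edgeR). In all 3 proteases the groups did not overlap, and LCH pool G and WT pool A were the lowest of their groups. How many of all genes showed no overlap was not counted. Il4 had 2, 0 and 4 counts in LCH and 4, 9 and 10 in WT, and its log2 difference of -2.21 (SE 0.99, adjusted p = 0.11) did not pass.

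**Figure D2:**
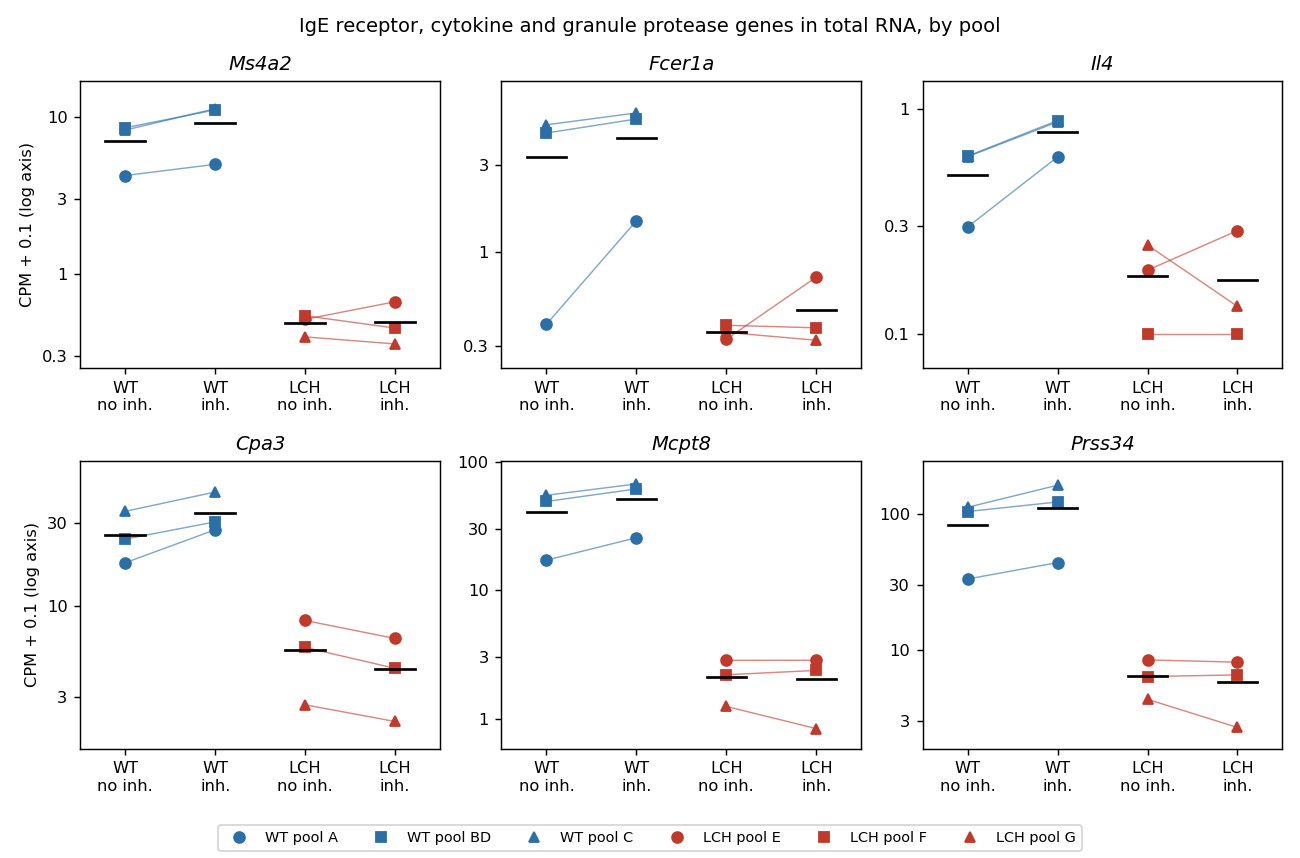
Total RNA levels of Ms4a2, Fcer1a, Il4, Cpa3, Mcpt8 and Prss34 as CPM + 0.1 on a log axis, for each library, with lines joining the libraries of a pool and black bars at group means. Within each inhibitor state WT libraries lie above LCH libraries in every panel, and WT pool A is the lowest WT pool throughout. The share of all genes without overlap was not counted.

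Among WT pools, the basophil genes varied more than Kit, Gata2 and Hdc. Without inhibitor the highest WT pool exceeded the lowest by 16.6-fold for Fcer1a, 3.38-fold for Prss34, 3.21-fold for Mcpt8 and 2.04-fold for Ms4a2, and by 1.44-fold for Kit, 1.30-fold for Gata2 and 1.16-fold for Hdc. Pool A was the lowest of the 3 for each of these basophil genes and the highest for Kit. Without pool A the genotype differences were at least as large, at -4.72 (adjusted p = 3.88e-04) for Mcpt8, -4.12 (6.37e-04) for Prss34, -4.44 (3.61e-05) for Ms4a2 and -2.44 (0.0141) for Cpa3 on the log2 scale.

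Mast cells were checked by their defining markers. Cma1, Mcpt4, Tpsb2 and Tpsab1, granule protease genes of mature mast cells, and the mast cell receptor gene Mrgprb2 together held 0 to 17 counts in a total RNA library. Both libraries of LCH pool G held 17, the libraries of pools E and F 0, and the WT libraries 0 to 10. The pool G libraries also held counts in 37388 and 38431 genes, against 16837 to 18406 genes in the other total RNA libraries. What gave the few marker counts in pool G was not tested. Tpsab1 was counted in pool G only, with 8 and 7 counts. Kit in pool G lay between pools E and F without inhibitor. In pools E and F, where these 5 genes had 0 counts, it was at 49.3 and 33.9 CPM, and the part of mast cells in the Kit difference was not tested.

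Of the basophil markers Mcpt8, Prss34, Cd200r3, Fcer1a, Ms4a2, Il4 and Itga2b, 4 were lower and 1 higher of 7 tested, with a median log2 fold change of -3.60 against 0.02 over all genes. The one that was higher was Cd200r3, an activating receptor gene of basophils and mast cells, at 0.89 (SE 0.28, adjusted p = 0.0311 by edgeR). Of 14 granule protease genes of both cell types only 5 passed the low-count filter, namely Cpa3, Mcpt8, Prss34, Gzmb and Ctsg, and these were lower. Gzmb, a granzyme, had a log2 fold change of -3.72 (SE 0.92), and Ctsg, the cathepsin G gene also made by neutrophils, -2.97 (SE 0.51). The summed level of the 14 genes was 10.9 to 21.7 CPM in LCH and 74.8 to 227 CPM in WT.

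Genes of other granulocytes were lower in the same comparison. Of 9 eosinophil markers 7 were lower and 1, the lectin gene Siglecf, was higher, and their summed level was 41.1 to 97.0 CPM in LCH against 405 to 736 CPM in WT. The eosinophil peroxidase gene Epx had a log2 fold change of -4.93 (SE 0.93) and the major basic protein gene Prg2 one of -4.76 (SE 0.61). Of 11 neutrophil markers 8 were lower and none higher, such as the calprotectin genes S100a8 (-2.49, SE 0.35) and S100a9 (-2.78, SE 0.37), with summed levels of 501 to 681 CPM in LCH and 1463 to 3262 CPM in WT. The part of these cells in the lower level of the basophil genes was not tested.

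Transcription factors around Gata2 moved both ways. Of 13 such genes 6 were lower in LCH, the lowest of them Gata1, the factor of mast cells, basophils, eosinophils and red cells, at -3.31 (SE 0.62, adjusted p = 0.00247 by edgeR). Nfe2 (-1.72, SE 0.37), Gfi1b (-1.33, SE 0.40), Lyl1 (-1.30, SE 0.21), Tal1 (-1.11, SE 0.27) and Mitf (-0.65, SE 0.21) were also lower. Lmo2, which bridges GATA factors and Tal1, was higher at 1.02 (SE 0.19), as were Bhlhe40 (0.98, SE 0.23) and Runx1 (0.71, SE 0.13). The median over the 13 was -0.65 against 0.02 over all genes.

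Progenitor markers did not follow Kit as a group. Of 9 tested, Kit and Cd34, a sialomucin of progenitors and of mouse mast cells, were higher, and Myb, Gfi1 and Erg were lower. Over all genes 14.8% were called higher and 14.9% lower. Cd34 had a log2 difference of 2.73 (SE 0.24, adjusted p = 2.7e-05 by edgeR), and Myb stood at -1.33 (SE 0.27). Of 15 genes for the Kit ligand and Kit signalling, Kit, Pik3cd (1.20, SE 0.10) and Ptpn6 (0.66, SE 0.16) were higher and Pik3r1 (-1.48, SE 0.09) and Dok1 (-0.63, SE 0.16) lower. Pik3cd and Pik3r1 encode a catalytic and a regulatory subunit of PI3-kinase, and Ptpn6 is a phosphatase that acts on Kit.

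Beside the shares over all genes, 14.8% higher and 14.9% lower, the counts for transcription factors, progenitor markers and Kit signalling above are descriptions only. So are those for the lists that follow. Of 16 genes of the IgE receptor and its signalling, 4 were higher, among them the kinase gene Lyn (0.81, SE 0.10) and the adaptor gene Lat (1.36, SE 0.41), and 3 were lower, Fcer1a, Ms4a2 and Plcg1 (-0.93, SE 0.19). Of 16 surface receptor genes tested, 5 were higher and 3 lower. Itgb7, the integrin chain that homes mast cell progenitors to mouse gut, was higher at 1.55 (SE 0.39), and Il1rl1, the IL-33 receptor, was lower at -1.02 (SE 0.22). Beside Hdc, the amine transporter Slc18a2, which loads histamine into granules, was lower at -2.18 (SE 0.49, adjusted p = 0.00693 by edgeR), and of the 7 tested genes of this group Chst11 (0.68, SE 0.12) was higher. Of 8 eicosanoid synthesis genes Alox5 alone was called, higher at 0.55 (SE 0.19), and of 5 tested type 2 cytokine and locus genes Areg alone, higher at 1.94 (SE 0.37).

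With inhibitor, the same comparison called Kit higher and the other 8 genes lower in LCH, where 9.27% of genes were called higher and 11.1% lower. Kit had a log2 difference of 1.60 (SE 0.17, adjusted p = 1.52e-04 by edgeR). Mcpt8 (-4.73, SE 0.64), Ms4a2 (-4.50, SE 0.43), Prss34 (-4.27, SE 0.67), Fcer1a (-3.44, SE 0.86), Il4 (-3.12, SE 0.95) and Cpa3 (-3.00, SE 0.48) were lower. WT pool A was again the lowest WT pool, at 25.5 CPM against 61.2 and 67.0 CPM in pools BD and C for Mcpt8. It stood at 44.0 against 123 and 164 CPM for Prss34 and at 1.38 against 5.32 and 5.76 CPM for Fcer1a. Fcer1a and Il4 rested on few counts, 7 to 20 and 0 to 6 in LCH against 27 to 111 and 10 to 15 in WT. The call of Il4 was lost in 6 of 6 fits without 1 library, with adjusted p from 0.0711 to 0.254, and that of Fcer1a in 4 of 6, with adjusted p up to 0.0802.

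Gata2 and Hdc joined the lower genes with inhibitor. Gata2 stood at 25.4, 19.4 and 18.2 CPM in LCH pools E, F and G and 40.0, 41.3 and 42.1 CPM in WT pools A, BD and C. Its log2 fold change was -0.97 (SE 0.15, adjusted p = 0.00116 by edgeR), and the groups did not overlap. Hdc stood at 50.1, 44.5 and 61.0 CPM in LCH and 108, 97.6 and 122 CPM in WT, a log2 difference of -1.07 with SE 0.13 and adjusted p = 3.47e-04. These comparisons use other libraries than those without inhibitor, but the same pools.

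**Figure D3:**
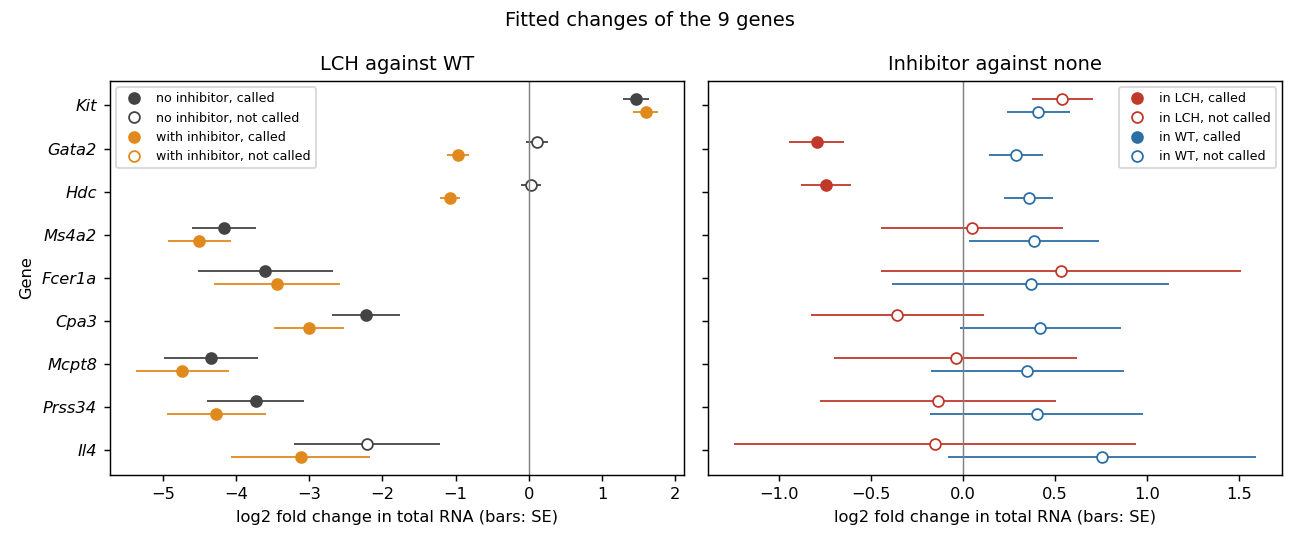
Fitted log2 fold changes of the 9 genes in total RNA, with bars of 1 SE, for LCH against WT (left) and for inhibitor against none (right), where filled points passed an adjusted p of 0.05 without a pool block. Gata2 and Hdc lie at 0.11 and 0.03 without inhibitor and at -0.97 and -1.07 with it.

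With inhibitor, Gata2 and Hdc were lower in LCH cells, and in WT cells both were higher in each pool. In LCH the log2 change was -0.79 for Gata2 (SE 0.15, adjusted p = 0.0345 by edgeR) and -0.74 for Hdc (SE 0.13, adjusted p = 0.0281), in a comparison where 0.142% of genes were called higher and 0.598% lower. Pool by pool, Gata2 changed by -0.89 to -0.74 and Hdc by -0.83 to -0.66, so all 3 pools fell. Each call was lost in 5 of the 6 fits that left out 1 library, with adjusted p up to 0.221 for Gata2 and 0.14 for Hdc. With the pool as a block, the paired fit, both were called at adjusted p = 1.33e-06 and 4.07e-08.

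Kit moved the other way in LCH. It went from 49.3 to 71.8 CPM in pool E, from 33.9 to 55.5 in pool F and from 41.6 to 54.2 in pool G. The log2 change of 0.54 (SE 0.16, adjusted p = 0.215 by edgeR) did not pass without the block. It passed with the pool block (SE 0.07, adjusted p = 3.84e-05) and without the low-count filter (adjusted p = 0.00885). The block called 8% of all genes higher and 9.21% lower, and among the 9 genes Kit higher and Gata2, Hdc and Cpa3 lower. Cpa3 changed by -0.36 (SE 0.11, adjusted p = 0.0327 with the block) and was down in 3 of 3 pools. Mcpt8 (-0.08), Prss34 (-0.19), Ms4a2 (0.02), Fcer1a (0.46) and Il4 (-0.25) did not pass, with SE of 0.13 to 1.02.

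In WT cells the inhibitor called none of the 9 genes without the block, where 0.673% of genes were called higher and 0.0374% lower. The count of genes at an unadjusted p under 0.05 was 1909 of 13375, and DESeq2 called 468 genes. Every one of the 9 genes went up in 3 of 3 WT pools, but the share of all genes that did so was not counted. With the pool block, which called 10.5% of genes higher and 11.1% lower, 6 of the 9 were higher: Cpa3 (0.44, SE 0.08), Kit (0.42, SE 0.09), Prss34 (0.39, SE 0.09), Mcpt8 (0.39, SE 0.08), Hdc (0.36, SE 0.06) and Gata2 (0.30, SE 0.08). Their adjusted p ran from 2.7e-04 to 0.0147 in the blocked edgeR fit.

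In that blocked WT fit the basophil genes moved with other granulocyte genes. Of 7 basophil markers 4 were higher and of 11 neutrophil markers 7 higher and 1 lower, with medians of 0.41 and 0.52 against 0.01 over all genes. Of 9 macrophage and monocyte markers 7 were lower and 1 higher, with a median of -0.45. The summed neutrophil level was 1463 to 3262 CPM without and 2084 to 4282 CPM with inhibitor, and whether a shift in these cells accounts for the rise of the members was not tested.

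The difference between the genotypes in their response to the inhibitor was tested directly. The log2 inhibitor effect on Hdc in LCH minus that in WT was -1.10 (SE 0.19, adjusted p = 0.0406 by edgeR), and for Gata2 it was -1.08 (SE 0.21, adjusted p = 0.06), where 0.0523% of genes were called higher and 0.351% lower. The call of Hdc was lost in 11 of 12 fits without 1 library, and also without WT pool A (adjusted p = 0.0694). With the pool block, which called 9.88% of genes higher and 9.85% lower, Hdc (adjusted p = 1.48e-07), Gata2 (4.72e-06), Cpa3 (-0.80, SE 0.14, 5.39e-04) and Prss34 (-0.58, SE 0.15, 0.0183) were lower. Kit had a difference of 0.13 (SE 0.12, adjusted p = 0.501 with the block), so its upward change was not shown to differ between the genotypes.

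On polysomes of LCH cells, Mcpt8 and Prss34 were over-represented against their total RNA. The log2 ratio of polysome to total CPM in the 6 LCH cultures was 2.14 to 2.93 for Mcpt8 and 2.01 to 2.91 for Prss34. Hdc lay at 0.26 to 0.79, Gata2 at -0.20 to 0.71 and Kit at -1.40 to -0.33. Every culture lay higher for Mcpt8 and Prss34 than for Hdc, Gata2 or Kit.

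Without inhibitor the fitted log2 ratio was 2.52 for Prss34 (SE 0.31, adjusted p = 5.61e-06 by edgeR with culture as a block), 2.44 for Mcpt8 (SE 0.54, adjusted p = 0.00198) and 0.66 for Hdc (SE 0.19, adjusted p = 0.0144). The median over all 14816 genes was -0.26, with 14.8% called higher and 14.6% lower. Kit had -0.69 (SE 0.26, adjusted p = 0.057), Gata2 0.22 (SE 0.26) and Cpa3 -1.42 (SE 0.93), and these did not pass. Behind these values lay 31 to 60 total RNA and 35 to 81 polysome counts of Mcpt8 in a culture without inhibitor. For Prss34 these were 115 to 183 and 76 to 331 counts. Ms4a2, Fcer1a and Il4 had at most 10 polysome counts in a culture and were not tested. The call of Kit depended on the fit, and it was called lower in 5 of 8 alternatives. Among these were -0.70 with DESeq2's size factors in edgeR (adjusted p = 0.0456) and -0.83 without the 4 rRNA-type genes (adjusted p = 0.0264). In edgeR fits without 1 culture the adjusted p of Kit ran from 0.0487 to 0.307. The call of Hdc was lost without the low-count filter (adjusted p = 0.422) and without any 1 of the 3 cultures.

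**Figure D4:**
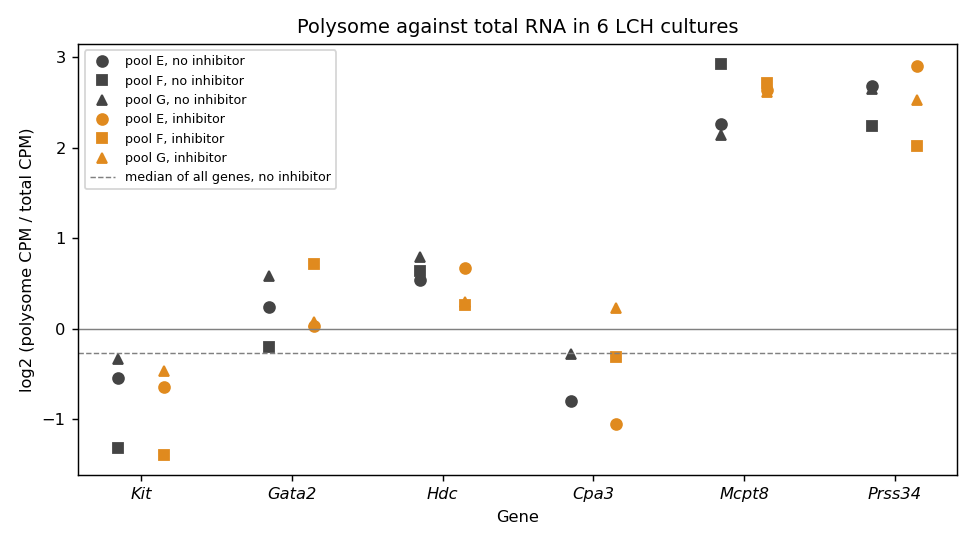
The log2 ratio of polysome to total CPM in each of 6 LCH cultures, by gene, with pool by marker shape and inhibitor by colour, and the dashed line at the median of all genes without inhibitor (-0.26). Mcpt8 and Prss34 lie above 2 in all 6 cultures, while Cpa3 has no point for pool F without inhibitor, where it had 0 polysome counts.

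Other granulocyte genes were compared in the same way. Of 4 tested basophil markers 3 were higher, Mcpt8, Prss34 and Itga2b, and of 11 neutrophil markers 5 were higher and 1 lower, with a median of 1.11. Of 9 eosinophil markers 2 were higher, with a median of -1.26, below that of all genes. Only 4 of these 9 passed the low-count filter in LCH polysome RNA alone, so that median rests in part on genes with few polysome counts. Fcer1g, a short signalling chain, was higher at 1.82 (SE 0.22, adjusted p = 5.35e-06).

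No inhibitor change in the polysome ratio passed the test for the 6 genes that could be tested in LCH, in a fit that called 0 of 14816 genes, with 205 at an unadjusted p under 0.05 and 3 called by DESeq2. The difference was -0.25 for Hdc (SE 0.27), 0.05 for Gata2 (SE 0.37) and -0.12 for Kit (SE 0.37) on the log2 scale. In polysome RNA itself edgeR called 0 of 10757 genes for the inhibitor in LCH, with 289 at an unadjusted p under 0.05 and 24 called by DESeq2. Hdc had a log2 change of -0.84 there (SE 0.25), Gata2 -0.62 (SE 0.31) and Kit 0.55 (SE 0.40), beside -0.74, -0.79 and 0.54 in total RNA of the same cultures. None of the 3 passed with the pool block either, where Hdc had an adjusted p of 0.087.

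In the 6 WT polysome libraries the 9 genes together gave few counts. Mcpt8 had 71 counts where its share of total RNA would give 90.9, Ms4a2 62 against 15.7, Kit 20 against 25.9, Hdc 20 against 150, Prss34 16 against 191 and Gata2 11 against 65.4. Cpa3, Fcer1a and Il4 had 0 counts against 47.2, 8.05 and 1.03. Each detected gene was counted in only 1 or 2 of the 6 libraries, so neither WT loading nor a genotype difference in polysome RNA was given for them. All genes together differed between the genotypes in polysome RNA by a median log2 of 1.62 without and 6.95 with inhibitor.

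The genes with the total RNA pattern most like each leading member were listed by Pearson's r of log2(CPM + 1) over the 12 libraries, among 9036 genes with a mean of at least 5 CPM. The libraries fall into genotypes and pools, so r describes these libraries only. Nearest to Mcpt8 were Prss34 (r = 0.997), the neutrophil granule genes S100a9 (0.990), Ngp (0.988) and S100a8 (0.987), and Ctsg (0.985). Nearest to Kit were Igfbp4 (0.978), Zfp811 (0.971), Nup155 (0.969), Ern1 (0.967) and Cep85l (0.965). Gata2 was nearest to R3hdm2 (0.925) and Sh2b3 (0.921), and Hdc to Gse1 (0.919) and Plagl2 (0.905).

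After the group means were removed, Prss34 was still nearest to Mcpt8 (r = 0.993), followed by Mpo (0.981), Mrpl18 (0.970), Ap3s1 (0.970) and Nudt3 (0.967). For Kit the nearest were Arhgef11 (0.915), Siglecf (0.914), Ppp4c (0.909), Nfatc2 (0.906) and Toe1 (0.904).

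The authors' normalized table divides each gene by a factor that varies between libraries, and relative to the library median this factor ran from 0.695 to 1.40 for Kit over the 12 total RNA libraries, a 2.02-fold range. It ran over 1.52-fold for Gata2, 1.35-fold for Hdc, 2.64-fold for Ms4a2, 1.22-fold for Cpa3 and 1.06-fold for Mcpt8, and it did not vary for Prss34 or Fcer1a. With the authors' normalized values Kit was called higher in LCH by 1.83 on the log2 scale without and 1.51 with inhibitor.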

How the data were processed

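The authors deposited a table of estimated counts from Salmon, held as whole numbers, for 24 total and polysome RNA libraries; Salmon and DESeq2 are named without versions in the submitters' processing notes, which give the build mm9. The files name no build, and their gene coordinates differ from GRCm38.p6, so none are printed; promoter windows are RefSeq's on GRCm38.p6 (9 of 9 genes matched by symbol). The authors also deposited normalized counts, a signal with gene-specific factors, and regularised log2 values per fraction, both used only as alternative inputs. Exon lengths are not used here, so levels are not compared between genes.

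The tests used edgeR 4.0.16 under R 4.3.3 (TMM, filterByExpr with a minimum count of 10, robust quasi-likelihood F test, two-sided), and Benjamini-Hochberg adjustment took in every gene of a fit. All 9 genes passed the filter in total RNA and 6 in LCH polysome RNA. The 4 groups of total RNA shared 1 fit, and the inhibitor comparison in LCH polysome RNA used the LCH polysome libraries alone. LCH polysome ratios had culture as a block. SE was derived from the F statistic. On simulated counts for the genotype comparison without inhibitor (13375 genes), the fit recovered 58% of genes planted at a log2 change of 1 and 100% at 1.5, and for the polysome ratio (14816 genes) 42% and 96%. The planted genes were drawn from those above a minimum mean count, with a fixed dispersion and, for the genotype comparison, no pool effect. These shares therefore do not apply to genes with few counts, such as Il4, or with a wider spread between pools.

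Libraries of the same pool deviated together in both inhibitor states: the correlation over genes of their deviations from the group means was 0.678, 0.532 and 0.808 for LCH pools E, F and G and 0.627, 0.602 and 0.237 for WT pools A, BD and C in total RNA, and 0.283, 0.331 and 0.491 in LCH polysome RNA. All exceed 0.1, so the pool was accepted as a replicate block, and pool GH of the polysome columns was taken as pool G. Of unlike pools, only LCH E and F in total RNA also exceeded 0.1, at 0.441 and 0.405. The threshold alone therefore did not tell E from F. Genotypes share no pool, so genotype comparisons had no pairing. Their fit held each pool in both inhibitor states and treated these libraries as independent, although they deviated together. No library pair of a group agreed within sampling noise (lowest chi-square per gene 18.5 over 24 pairs).

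The genes and lists were chosen with earlier results of these data known. All 9 genes are named, called genes of the lists may be named, and the genes most like Kit, Gata2, Hdc and Mcpt8 are the 5 with the highest r, of which those for Gata2 and Hdc are given in part. Alternatives were DESeq2 1.42.0, limma 3.58.1 on the authors' values, another scaling, no filter, no rRNA-type genes, leaving out libraries, and, chosen after the data were seen, the authors' normalized counts and leaving out WT pool A or LCH pool G.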

Additional observations from a re-analysis of the deposited data

Results flagged for a closer look

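The inhibitor effect in total RNA differed between LCH and WT for 1 of the 9 genes without a pool block and for 4 with it, where the block called 9.88% of all genes higher and 9.85% lower. For Hdc the difference of the log2 effects, LCH minus WT, was -1.10 (adjusted p = 0.0406 by edgeR), with 3 of 3 LCH pools lower and 3 of 3 WT pools higher with inhibitor, and this call was lost in 11 of 12 fits without 1 library. Gata2 did not pass without the block (adjusted p = 0.06). In the blocked fit Gata2 differed by -1.10 (adjusted p = 4.72e-06), Cpa3 by -0.80 (adjusted p = 5.39e-04) and Prss34 by -0.58 (adjusted p = 0.0183). Gata2 and Cpa3 were lower in 3 of 3 LCH pools and higher in 3 of 3 WT pools, and Prss34 was lower in 2 of 3 LCH pools and higher in 3 of 3 WT pools.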

How the results depend on the processing

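Over 916 alternatives for single genes, 783 kept the direction and the side of the threshold. The genotype calls of Kit, Ms4a2, Cpa3, Mcpt8 and Prss34 held in both inhibitor states under every alternative run; where others changed, the cause was not tested. Few counts limit Il4, Fcer1a and Ms4a2.

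With the authors' rlog values, the genotype comparisons called 1632 genes without and 995 with inhibitor, the inhibitor 25 in LCH and 51 in WT, and the genotype by inhibitor difference 7. With the authors' normalized values these were 1753 for the genotype with inhibitor, 37 and 208. Hdc without inhibitor then had a genotype change of -0.12 (rlog) and -0.10 (normalized), Ms4a2 an inhibitor change in LCH of -0.14 and -0.23, and the genotype by inhibitor difference was -0.12 and -0.32 for Kit and -0.23 and -0.56 for Fcer1a. Under both inputs the LCH inhibitor calls of Gata2 and Hdc were lost (adjusted p = 0.113 to 0.283).

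Without the low-count filter the inhibitor called 342 genes in LCH and 299 in WT, the genotype by inhibitor difference 269, LCH polysome RNA 36, the inhibitor effect on loading 4 and the polysome genotype comparisons 921 and 762; Gata2 loading was -0.042. DESeq2 called 409, 468, 341, 24, 3, 1076 and 1618 in that order. With DESeq2's size factors in edgeR the polysome genotype comparison with inhibitor called 0. For the inhibitor effect on loading, Kit was 0.0027 and Prss34 0.085 with those factors, Kit 0.0022 and Prss34 0.086 with DESeq2, Prss34 0.083 without the rRNA-type genes and 0.033 with no replicate block. Fitting only the 2 WT groups, the inhibitor called 6 genes.

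With the replicate block the inhibitor called 2302 genes in LCH, 2899 in WT, 2639 for the difference and 29 in LCH polysome RNA, and Fcer1a had a difference of -0.14; the block changed no other call of the 9 genes than those given. Without LCH pool G the inhibitor called 33 genes in LCH and the difference 23; Hdc had a genotype change of -0.062, Mcpt8 and Il4 inhibitor changes in LCH of 0.056 and 0.97, and Il4 a difference of 0.20.

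Leaving out 1 library gave 2371 to 3768 and 1470 to 2368 genes for the genotype without and with inhibitor, 20 to 73 and 8 to 244 for the inhibitor in LCH and WT, 7 to 66 for the difference, 0 to 1 in LCH polysome RNA, 1 to 32 for loading and 0 to 3425 for the polysome genotype comparison with inhibitor. It moved the genotype change of Gata2 from -0.026 to 0.17 and Hdc from -0.054 to 0.11. The inhibitor change in LCH ranged from -0.32 to 0.28 for Ms4a2, -0.045 to 0.80 for Fcer1a, -0.78 to 0.061 for Cpa3, -0.40 to 0.36 for Mcpt8, -0.47 to 0.22 for Prss34 and -1.99 to 0.62 for Il4, and in WT from -0.17 to 0.82 for Fcer1a and -0.017 to 0.67 for Mcpt8. The difference ranged from -0.026 to 0.28 for Kit and -0.41 to 0.71 for Fcer1a. In LCH polysome RNA Cpa3 ranged from -0.032 to 1.54, Mcpt8 from -0.19 to 0.55 and Prss34 from -0.65 to 0.31, and for loading Kit from -0.44 to 0.081, Gata2 from -0.23 to 0.23 and Prss34 from -0.29 to 0.15.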

Other observations

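Il13, the type 2 cytokine gene next to Il4 in the same cytokine locus, had 35 to 56 counts in LCH total RNA libraries and 15 to 44 in WT, where Il4 had 0 to 6 and 4 to 15. These counts are not corrected for depth, and LCH against WT Il13 did not pass in edgeR, with log2 differences of 0.70 (adjusted p = 0.219) without and -0.11 (adjusted p = 0.884) with inhibitor. Cd200r3, called higher in LCH without inhibitor, was at 0.06 with it (adjusted p = 0.907). The 2 libraries of LCH pool G, which alone held Tpsab1 counts, were the lowest LCH libraries of their inhibitor state for Mcpt8, Prss34 and Cpa3. These libraries held counts in 37388 and 38431 genes, against at most 18406 in any other total RNA library. Whether the few Tpsab1 counts come from mast cells was not tested.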
